A study of Rattus norvegicus with 62 samples.

Results

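The NRF2 antioxidant targets were followed in rat liver as 9 genes: Nqo1, Akr7a3, Gclc, Gclm, Gsr, Txnrd1, Srxn1, Me1 and Hmox1. They were picked by name, as every probe set of the array whose single gene symbol was one of these 9, and not by their values. This gave 14 probe sets of the 20826 with a single symbol, and 9 genes of 14217. All 9 genes reached a signal of 100, the minimum used for testing, on all 62 arrays with the probe set used for the gene, so none dropped out. The rats were males of the outbred Sprague-Dawley stock Crj:CD(SD)IGS, in a 2-stage carcinogenesis design. Rats first received an initiator or its vehicle methylcellulose (MC), and later drank phenobarbital (PB, at 500 ppm), a tumour promoter, or plain water. The groups were MC/water, MC/PB, diethylnitrosamine at 3 mg/kg (DEN3/PB) or 30 mg/kg (DEN30/PB), thioacetamide at 45 mg/kg (TAA/PB), methapyrilene at 100 mg/kg (MP/PB) and acetaminophen at 1000 mg/kg (APAP/PB). Each animal gave liver at partial hepatectomy, 1 week after promotion began (5w), and again at the end of the study (10w), so every 10w liver, MC/water included, had regrown after surgery. Each week had 5 animals in DEN3/PB, TAA/PB and MP/PB and 4 in every other group, and no group combined an initiator with plain water.

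NRF2, encoded by Nfe2l2, is a transcription factor that KEAP1 holds in the cytoplasm and passes on for degradation. When electrophiles or oxidants modify KEAP1, NRF2 enters the nucleus, pairs with small MAF proteins and binds antioxidant response elements near genes that detoxify quinones and aldehydes, make and recycle glutathione, reduce thioredoxin and peroxiredoxin, supply NADPH and break down heme. In liver, phenobarbital acts mainly through the nuclear receptors CAR and PXR, and several detoxification genes answer to both these receptors and NRF2.

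The arrays were already scaled, to a trimmed mean between 500.23 and 500.27, and their median signals lay between 99.3 and 125.7. Within the groups, the main axis of variation (11.8% of it) split the arrays into 30 of set 1 and 32 of set 2, with 2 or 3 arrays of every group in each set. What the sets are is not known. They followed the replicate number, with replicates 1 and 3 of every group in set 1 and replicates 2 and 4 in set 2. Replicate 5 was in set 1 in DEN3/PB and in set 2 in TAA/PB and MP/PB. Both samples of an animal always fell in the same set. Differences are on the log2(signal + 25) scale, ± the standard error, and within-set values are given for the phenobarbital response. The test was limma, adjusted by Benjamini and Hochberg over all genes tested (10491 at 5w and 10546 at 10w), with 0.05 as the threshold.

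The promoters are shown because NRF2 acts through a response element, although the members were picked by name and not by such an element. Of the 9 genes, 7 (all but Hmox1 and Gsr) had a RefSeq window (build GRCr8, 250 bases before to 50 bases after a start), 8 windows in all, since Txnrd1 had a pair. The core of the antioxidant response element was searched on both strands as TGACNNNGC, which reads GCNNNGTCA on the other strand. It was found in 3 of the 8 windows, those of Gclm, Me1 and the second of Txnrd1, against 4038 of all 33469 windows (12.1%). The matches are printed with 10 bases on each side, 5′ to 3′ on the strand of the gene, and capitals mark the core.
Gclm, chr2:213031953-213031981, + strand, 172 bases before the start: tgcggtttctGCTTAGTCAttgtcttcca
Txnrd1, chr7:22755964-22755992, − strand, 78 bases before the start: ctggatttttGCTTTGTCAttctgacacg
Me1, chr8:96540393-96540421, − strand, 167 bases before the start: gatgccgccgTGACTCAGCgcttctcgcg
The windows of Nqo1 and Akr7a3, the members with the largest responses below, held no match, which says only that these letters are not in these windows. Their 250 bases before the start follow for comparison.
Nqo1, chr19:52220268-52220517, − strand: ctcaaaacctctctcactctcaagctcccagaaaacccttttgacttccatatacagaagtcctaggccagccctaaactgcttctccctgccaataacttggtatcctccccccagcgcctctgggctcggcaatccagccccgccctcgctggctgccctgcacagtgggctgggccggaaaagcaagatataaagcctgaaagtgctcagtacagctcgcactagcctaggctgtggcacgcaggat
Akr7a3, chr5:156876471-156876720, + strand: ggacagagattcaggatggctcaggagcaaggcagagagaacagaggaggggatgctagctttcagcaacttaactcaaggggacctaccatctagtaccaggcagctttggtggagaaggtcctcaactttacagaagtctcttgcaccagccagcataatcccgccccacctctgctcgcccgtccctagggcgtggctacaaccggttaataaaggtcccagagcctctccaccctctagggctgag

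The question of the first comparison was what phenobarbital did to these genes without an initiator. Both detoxifying reductases rose at both weeks. Nqo1 encodes the quinone reductase that keeps quinones from redox cycling. Its 5w signals were 2623, 1753, 3202 and 2069 in MC/water and 6694, 6077, 5822 and 5019.8 in MC/PB. At 10w they were 3646, 2715, 3892 and 2681 in MC/water and 8749, 10631, 10589.6 and 9297.6 in MC/PB. The treated livers lay above all controls at both weeks, and the controls of set 2 (replicates 2 and 4) were the lower pair each time. The rise was 1.31 ± 0.20 at 5w, or 2.48-fold (4 livers a group, limma adjusted p = 0.000163; 1.10 in set 1, 1.52 in set 2), and 1.61 ± 0.26 at 10w, or 3.05-fold (limma adjusted p = 0.000332; 1.35 and 1.87).

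Akr7a3 encodes an aldehyde reductase known for detoxifying aflatoxin dialdehyde. Its 5w signals were 2458, 3448, 5690.0 and 4477 in MC/water and 8783, 8959.5, 5889 and 6944 in MC/PB. The groups did not overlap, although the highest control and the lowest treated liver were close. At 10w the signals were 3405, 2859.7, 3745 and 6057 in MC/water and 17534.5, 20518, 20728 and 17098 in MC/PB. The control level had hardly moved between the weeks, while every treated liver stood far above its 5w level. The rise was 0.97 ± 0.21 at 5w (1.96-fold, limma adjusted p = 0.00929; 0.94 in set 1, 1.00 in set 2) and 2.29 ± 0.28 at 10w (4.88-fold, limma adjusted p = 4.73e-06; 2.41 and 2.16). The 5w call rested on few animals: the adjusted p was 0.0648 without MC/water replicate 1 and 0.0565 without MC/PB replicate 1. It was also lost when only the arrays of MC/water and MC/PB entered the fit (limma adjusted p = 0.0989).

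The glutathione genes split. Gsr, the reductase that regenerates glutathione, rose at both weeks. Its 5w signals were 840.1, 825, 804 and 1008 in MC/water and 1549, 1439, 1151 and 1439.8 in MC/PB, without overlap. At 10w they were 860.4, 735, 835 and 1005.5 against 2207, 1901, 1546 and 1740.2. The controls again stayed level and the treated livers were higher than at 5w. The rise was 0.66 ± 0.16 at 5w (1.58-fold, limma adjusted p = 0.0269; 0.68 and 0.64 in the sets) and 1.08 ± 0.21 at 10w (2.11-fold, limma adjusted p = 0.00341; 1.10 and 1.06). At 5w the call was lost without any 1 of 6 of the 8 animals compared (MC/water replicates 1, 2 and 3, MC/PB replicates 1, 2 and 4), with adjusted p from 0.0658 to 0.126 and differences from 0.61 to 0.65. Gclm and Gclc encode the modifier and the catalytic subunit of glutamate-cysteine ligase, which makes the precursor of glutathione, and neither passed at either week. Gclm signals at 10w were 2772, 2679, 4445 and 5187 in MC/water and 6083.5, 6616, 5595.5 and 5810.3 in MC/PB. The groups did not overlap, but the controls were wide apart, and the difference of 0.73 ± 0.26 had an adjusted p of 0.163 by limma (0.73 in both sets). At 5w it was 0.34 ± 0.16 (limma adjusted p = 0.418). Gclc differed by -0.11 ± 0.19 at 5w (limma adjusted p = 0.920) and by 0.54 ± 0.22 at 10w (limma adjusted p = 0.229), with overlapping animals at both weeks and 0.79 and 0.29 in the sets at 10w.

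Me1, the cytosolic malic enzyme that supplies NADPH and also serves fatty acid synthesis, rose at 10w. Its signals were 1384, 715, 975 and 1233 in MC/water and 4089, 2486.5, 2391 and 1812 in MC/PB, with replicate 1 of MC/PB well above the others. The difference was 1.28 ± 0.31, or 2.43-fold (limma adjusted p = 0.0231; 1.41 and 1.15 in the sets). The call was lost without MC/PB replicate 1 (limma adjusted p = 0.109), MC/PB replicate 2 (0.0522), MC/water replicate 2 (0.102) or MC/water replicate 3 (0.0640). At 5w the groups overlapped, at 0.39 ± 0.24 (limma adjusted p = 0.617; 0.62 and 0.17 in the sets).

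The thioredoxin branch did not pass at either week, although its 10w groups were separate. Txnrd1, thioredoxin reductase, gave 2383, 2006, 2505 and 2699 in MC/water and 3073, 4053, 3732 and 3624 in MC/PB at 10w, a difference of 0.59 ± 0.20 (limma adjusted p = 0.129). Srxn1, the sulfiredoxin that reactivates oxidised peroxiredoxins, gave 685, 491, 584 and 681 against 1151, 1349, 1346 and 980.2, a difference of 0.96 ± 0.30 (limma adjusted p = 0.0914). The fit on MC/water and MC/PB alone, in which Akr7a3 lost its 5w call, passed both (limma adjusted p = 0.0267 for Txnrd1 and 0.00553 for Srxn1). At 5w the differences were 0.10 ± 0.15 and 0.44 ± 0.26, and the 5w difference of Srxn1 held 1 liver, MC/PB replicate 4, whose signal of 1543 lay far over the 620.2 to 855 of its group.

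Hmox1, the inducible heme oxygenase, did not pass at either week. The 5w signals were 799, 507, 665 and 371 in MC/water and 539, 689.9, 730.2 and 1290.3 in MC/PB. The 10w signals were 693, 695, 615 and 708 in MC/water and 782, 1405, 555 and 1024 in MC/PB. The groups overlapped at each week, with MC/PB replicate 4 the highest liver at 5w and replicate 2 at 10w. The differences were 0.44 ± 0.24 at 5w and 0.38 ± 0.21 at 10w (limma adjusted p = 0.550 and 0.425), and the sets disagreed, at -0.21 and 1.08 at 5w and at 0.01 and 0.75 at 10w. Hmox1 is also abundant in liver macrophages. The 5 measured markers of Kupffer cells and macrophages, of 6 listed, summed to signals of 8386 to 12373 in MC/water and 8373 to 10341 in MC/PB at 5w, and to 9533 to 13004 and 7644 to 11301 at 10w. None of the 5 passed at either week (median differences -0.14 and -0.22). In whole liver, fewer cells of a type and less RNA per cell cannot be told apart, and the part of these cells in the Hmox1 values was not tested.

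Counted together, 3 of the 9 genes rose and 0 fell at 5w, where 1.26% of all genes passed, 0.839% higher and 0.419% lower. At 10w 4 rose and 0 fell, where 2.26% passed, 1.59% higher and 0.664% lower. The median difference of the 9 was 0.44 at 5w and 0.96 at 10w, against -0.0031 and -0.0094 over all genes tested. All 4 treated livers lay above all 4 controls for 3 genes at 5w and 7 at 10w, while 3.55% and 5.05% of all genes were separated in that direction. The count at 5w was 1 without MC/water replicate 1 or MC/PB replicate 1, and within set 1 and set 2 alone 0 and 1 members passed.

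**Figure D1:**
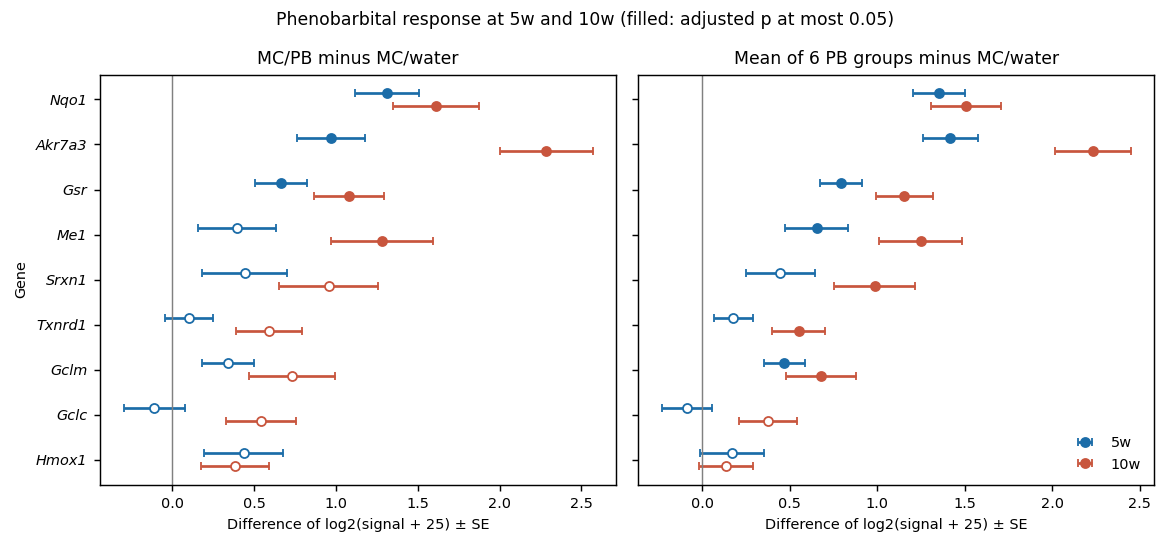
Differences of log2(signal + 25) ± SE for the 9 genes, with MC/PB minus MC/water on the left and the mean of the 6 phenobarbital groups minus MC/water on the right, at 5w (blue) and 10w (red). Filled points have a limma adjusted p of at most 0.05; Akr7a3 moves furthest between the weeks, from 0.97 to 2.29 on the left, while Hmox1 and Gclc have no filled point.

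Whether the response itself grew between the weeks was tested as the 10w minus the 5w difference on all 62 arrays. None of the 9 genes passed, and limma passed 0 of 10910 genes (0%), with 492 genes and 3 members at an unadjusted p under 0.05. Those members were Akr7a3, at 1.32 ± 0.36 (limma adjusted p = 0.678), Me1 at 0.89 ± 0.41 and Gclc at 0.65 ± 0.30 (both limma adjusted p = 1). Since both samples came from the same animals, the animal was also fitted as a random block. Akr7a3 then passed, just inside the threshold (limma adjusted p = 0.0492), as 1 of 7 genes (0.0642%), and no other member did. With the mean of all 6 phenobarbital groups in place of MC/PB, a choice made after the data were seen, the growth of Akr7a3 was 0.81 ± 0.28 (limma adjusted p = 0.644, and 0.0975 with the animal as a block). Nqo1 stood at 0.30 ± 0.34 in the test against MC/PB (limma adjusted p = 1).

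The mean of the 6 phenobarbital groups against MC/water used 27 treated livers a week and the same 4 controls as above, so it is no separate evidence of the response. At 5w 5 of the 9 rose (background 4.23% of all genes, 2.8% higher): Nqo1 by 1.35 ± 0.15, Akr7a3 by 1.42 ± 0.16, Gsr by 0.79 ± 0.12, Me1 by 0.65 ± 0.18 and Gclm by 0.47 ± 0.12. The limma adjusted p of Me1 was 0.0337 and that of Gclm 0.0181. The count was 3 without MC/water replicate 2, which lost Gclm and Me1 (limma adjusted p = 0.102 and 0.0840). Me1 was also lost without MC/water replicate 3 (0.276) or 4 (0.0564), and Gclm was at 0.30 without MC/water replicate 1 (limma adjusted p = 0.231). At 10w 7 rose (background 8.48%, 4.97% higher), with Srxn1 at 0.99 ± 0.23 and Txnrd1 at 0.55 ± 0.15 joining Nqo1 (1.51 ± 0.20), Akr7a3 (2.23 ± 0.22), Gsr (1.15 ± 0.16), Me1 (1.25 ± 0.24) and Gclm (0.68 ± 0.20). The 10w calls of Gclm (adjusted p = 0.157 and 0.181) and Txnrd1 (0.0614 and 0.117) were lost without MC/water replicate 1 or 2. In set 1 and set 2 alone, Srxn1 (limma adjusted p = 0.223 and 0.06), Txnrd1 (0.186 and 0.212) and Gclm (0.288 and 0.262) lost theirs, and Me1 in set 1 (0.0674). Tested on its own, the other measured Srxn1 probe set gave 0.79 at 10w (limma adjusted p = 0.097) and the other Txnrd1 probe set 0.66 (0.0122). Gclc at 0.38 ± 0.16 and Hmox1 at 0.14 ± 0.16 did not pass at 10w (limma adjusted p = 0.166 and 0.687). In the plain comparison of animals, all livers of all 6 phenobarbital groups lay above the MC/water livers of their week for Nqo1, Akr7a3 and Gsr at 5w and for these and Me1 at 10w (0.648% and 1.03% of all genes). For Me1 this held for 3 of 6 groups at 5w and 6 of 6 at 10w, for Srxn1 and Txnrd1 for 1 and 5, for Gclm and Hmox1 for 0 and 1, and for Gclc for 0 at both weeks. Among the cell markers of this comparison Epcam (biliary) was higher and Tat (hepatocyte) lower at both weeks. At 10w Apoa1 (hepatocyte) was also higher and Kdr (endothelial) lower. Krt19, the other biliary marker tested, did not pass at either week. Their part in the members' values was not tested.

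Over the 14 groups, the levels of Nqo1 ran from 11.21 ± 0.38 at 5w and 11.65 ± 0.28 at 10w in the water controls (SD, n = 4 each) up to 13.30 ± 0.44 (SD, n = 5) in TAA/PB at 10w. All phenobarbital groups at 5w stood between 12.39 and 12.71 and all at 10w between 12.97 and 13.30. When the 14 means were put in order, only 2 of 13 steps between neighbours exceeded the pooled SD of 0.36, those on either side of MC/water at 10w. Akr7a3 spanned the widest range, 2.35, from 11.91 ± 0.52 at 5w and 11.92 ± 0.46 at 10w in the water controls (SD, n = 4 each) to 14.28 ± 0.62 (SD, n = 5) in TAA/PB at 10w. Its 2 steps beyond the pooled SD of 0.38 lay between the controls and MC/PB at 5w (12.88 ± 0.29), and between MP/PB at 10w (13.80 ± 0.44) and the other groups of that week, all at 14.19 or above. Gsr and Gclm had 1 step beyond the pooled SD, above the MC/water pair, and Txnrd1 had 1, which set MP/PB at 10w (11.44 ± 0.20) apart from the phenobarbital groups of that week above it. Me1, Srxn1, Gclc and Hmox1 had 0, so the neighbours in their order do not differ beyond their spread. The full range of group means was 1.38 for Me1, 1.36 for Gsr, 1.19 for Srxn1, 0.83 for Gclm, 0.77 for Txnrd1, 0.64 for Hmox1 and 0.60 for Gclc.

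**Figure D2:**
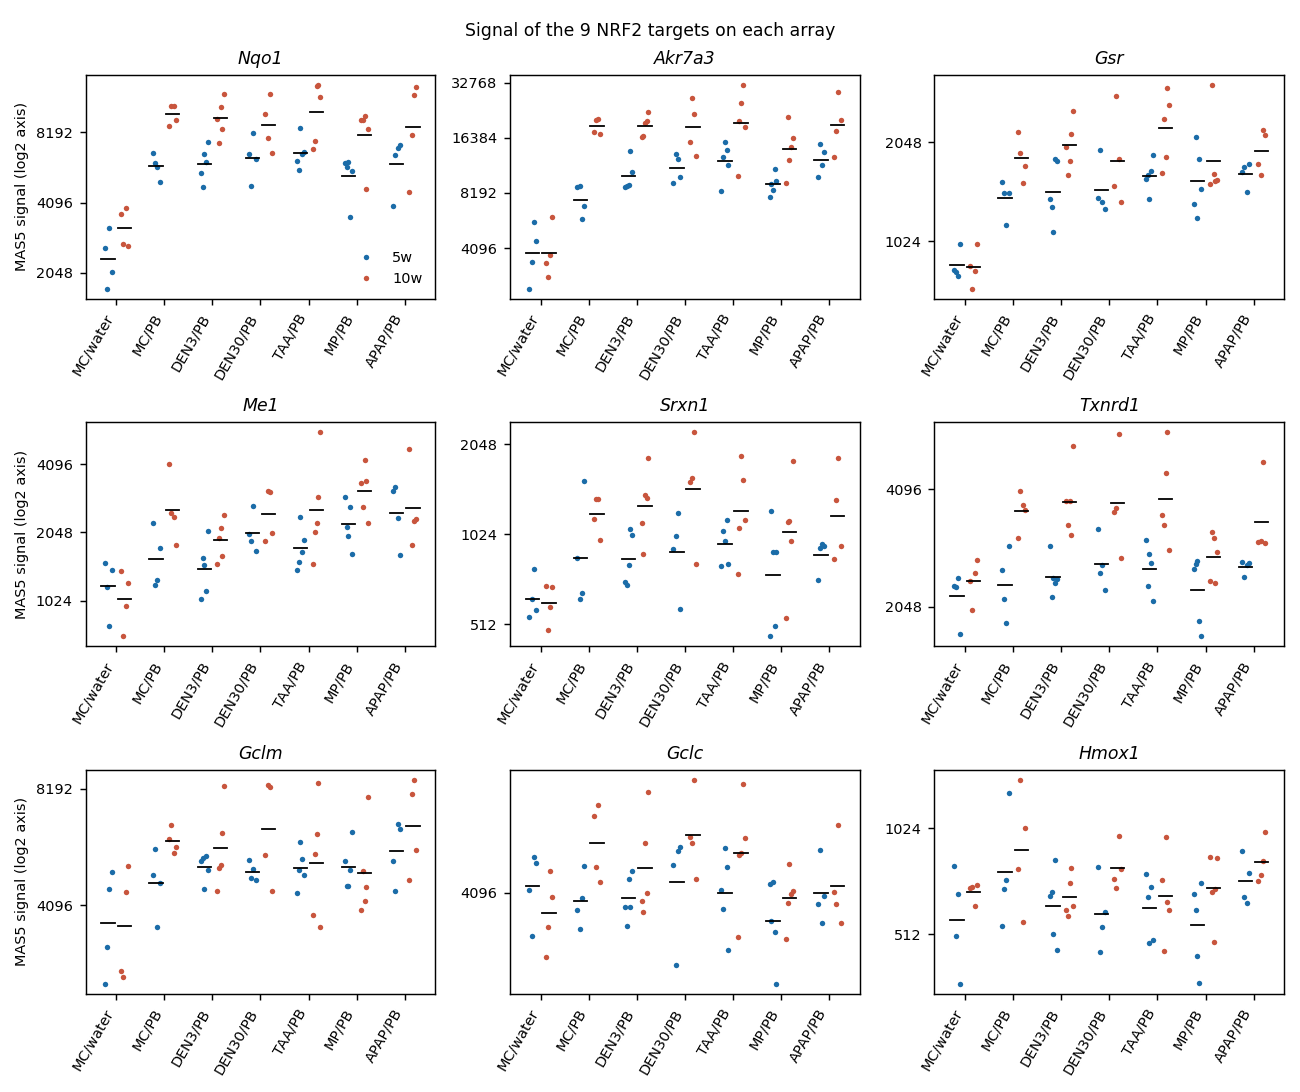
MAS5 signal of each gene on each array (log2 axis, a scale of its own per gene), by group, at 5w (blue) and 10w (red), with bars at the mean of the log2 values. For Nqo1, Akr7a3 and Gsr all phenobarbital livers lie above the MC/water livers of their week, while for Gclc every phenobarbital group overlaps its controls, and for Hmox1 all but APAP/PB at 10w.

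Against MC/PB, the question was whether a past initiator changed these genes in livers under phenobarbital. None of the 9 passed in any of the 10 comparisons, where the share of all genes that passed by limma was 0.0381% (DEN3), 0.114% (DEN30), 0.0191% (TAA), 0.0572% (MP) and 0% (APAP) at 5w. At 10w it was 0.019%, 0.0284%, 0.00948%, 0.0853% and 0.0664% in the same order. At an unadjusted p under 0.05, between 0 and 2 members were found in each comparison. Over all genes tested (10491 at 5w and 10546 at 10w) the number was between 484 (DEN3 at 10w) and 849 (MP at 5w). With so few genes past the adjusted threshold, these are statements on the threshold and do not show that the groups were alike. All 5 comparisons of a week share the 4 MC/PB livers.

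Among the probe sets used, Akr7a3 had the largest differences at 5w except after methapyrilene, where Me1 (0.50) and Hmox1 (-0.48) differed more. Its signals were 9945.6, 15232, 11577 and 13691.5 in APAP/PB and 9323, 13423, 12530.2 and 10017.5 in DEN30/PB, and in both groups all livers exceeded the highest MC/PB liver, at 8959.5. Across all genes, 1.67% were separated upward in the APAP comparison and 2.2% in the DEN30 comparison. The differences were 0.72 ± 0.21 after acetaminophen (limma adjusted p = 0.288), 0.57 ± 0.21 after DEN30 (0.549), 0.69 ± 0.20 after thioacetamide (0.388), 0.42 ± 0.20 after DEN3 (0.908) and 0.28 ± 0.20 after methapyrilene (0.787). At 10w they were 0.02, -0.02, 0.07, 0.01 and -0.41 in the same order. The initiated groups thus stood above MC/PB at 5w in all 5 comparisons and at 10w in 3, each time against the same control animals. The signs of the small 10w differences rested on single livers. Acetaminophen was at -0.18 without APAP/PB replicate 3, thioacetamide at -0.10 without TAA/PB replicate 4 and DEN3 at -0.02 without MC/PB replicate 1. The other way, DEN30 was at 0.16 without DEN30/PB replicate 4.

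Me1 differed by 0.67 ± 0.24 after acetaminophen (limma adjusted p = 0.506) and 0.50 ± 0.23 after methapyrilene (0.571) at 5w. Its other probe set, tested on its own, gave 0.70 and 0.59 there. After DEN30 and thioacetamide at 5w that probe set gave 0.70 and 0.58 (limma adjusted p = 0.717 and 0.932). The probe set used gave 0.38 and 0.15 in these 2 comparisons. Hmox1 lay below MC/PB in all 10 comparisons, from -0.48 ± 0.23 in MP/PB at 5w to -0.08 ± 0.24 in APAP/PB at 5w. These differences share the MC/PB livers, of which replicate 4 at 5w and replicates 2 and 4 at 10w were the highest. Without MC/PB replicate 4 the APAP difference at 5w turned to 0.16, and without MC/PB replicate 2 the DEN30 and APAP differences at 10w turned to 0.05 and 0.10. In set 1 alone 5 of the 10 were positive: DEN30 (0.06) and APAP (0.24) at 5w, and DEN30 (0.35), TAA (0.34) and APAP (0.22) at 10w. After methapyrilene at 10w, 8 of the 9 genes lay below MC/PB, with a median of -0.29 against 0.0033 over all genes. Gclc was at -0.43 ± 0.20, Akr7a3 at -0.41 ± 0.27 and Txnrd1 at -0.39 ± 0.19 (limma adjusted p from 0.642 to 0.729), and Me1 was the exception at 0.28 ± 0.30. The count includes Gsr at -0.02 and Srxn1 at -0.20, which were positive in set 2 alone (0.11 and 0.12). Gsr also turned positive without MC/PB replicate 1 or any of MP/PB replicates 1, 3, 4 and 5 (0.01 to 0.06), and Srxn1 without MP/PB replicate 1 (0.03).

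**Figure D3:**
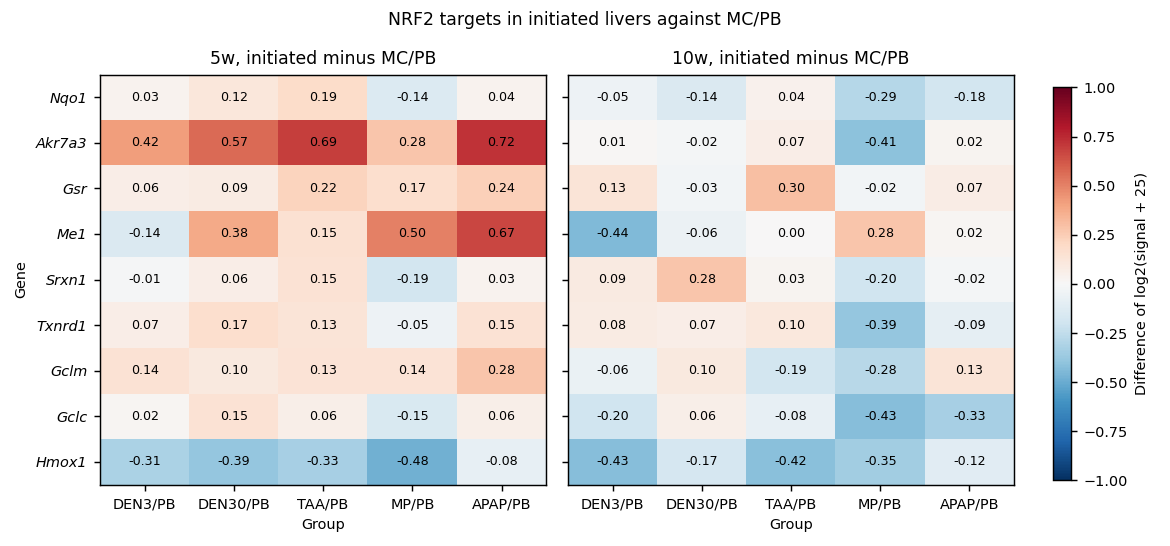
Differences of log2(signal + 25) of each initiated group from MC/PB for the 9 genes, at 5w and 10w; red is higher and blue lower, and none passed at a limma adjusted p of 0.05. Akr7a3 is higher in all 5 groups at 5w, from 0.28 to 0.72, and Hmox1 is lower in all 10 cells, of which 5 turn positive in set 1 alone.

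Between the weeks, MC/water livers showed no call among the 9 genes (limma passed 0.0458% of all genes, 5 in all). Of the members 0 had an unadjusted p under 0.05, against 712 of the 10910 genes tested. Nqo1 had the largest difference, 0.44 ± 0.24 (limma adjusted p = 0.834), and Akr7a3 and Gsr stood at 0.01 ± 0.26 and -0.02 ± 0.19. Under phenobarbital, the mean of the 6 groups rose from 5w to 10w for 7 of the 9 genes and fell for 0, where 24.6% of all genes passed, 12.7% higher and 11.9% lower. Akr7a3 rose by 0.82 ± 0.10 (limma adjusted p = 4.86e-09), Nqo1 by 0.59 ± 0.09, Txnrd1 by 0.50 ± 0.07, Srxn1 by 0.50 ± 0.11, Me1 by 0.42 ± 0.11, Gsr by 0.34 ± 0.08 and Gclc by 0.26 ± 0.08. Gclm at 0.18 ± 0.09 and Hmox1 at 0.22 ± 0.09 did not pass (limma adjusted p = 0.126 and 0.0622). With the animal as a block all 9 passed, with adjusted p of 0.0391 for Gclm and 0.0190 for Hmox1, as did 34.1% of all genes. Each gene's rise under phenobarbital was not called different from its change in MC/water, since that difference is the 6-group test above. Time here holds surgery, regrowth, age and longer dosing at once, and these cannot be told apart. Markers of other cells moved as well between the weeks under phenobarbital. Epcam was higher, while Krt19, the other biliary marker tested, did not pass. Cps1, of the hepatocyte markers, was lower. Alas2 and Hbb of 3 tested erythroid markers, Kdr, Lyve1 and Stab2 of 4 endothelial markers and Col1a1, Col3a1 and Lrat of 5 stellate markers were lower. None of these markers passed in MC/water, where fewer livers were compared. The median difference of the endothelial markers was -0.330 in MC/water and -0.335 under phenobarbital. That of the erythroid markers was -0.524 and -0.885, of the biliary 0.210 and 0.146 and of the stellate 0.043 and -0.186. Lower endothelial and erythroid medians were thus not limited to livers given phenobarbital. The part of these cells in the members' values was not tested.

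Since each animal was sampled at both weeks, the deviation of each liver from its group mean at 5w was compared with that of the same animal at 10w (31 animals, 9 relations, permutations of animals within treatments). For Nqo1 the deviations of an animal at both weeks were closely related. Pearson's r was 0.834 (permutation p = 1e-05, the smallest the 100000 permutations can give, adjusted p = 9e-05) and Spearman's rho 0.821 (permutation adjusted p = 0.00018), and 26 of 31 animals were on the same side of their group mean at both weeks. Without the pair of animals farthest from the median, APAP/PB replicate 1 and MP/PB replicate 4, r was 0.741. APAP/PB replicate 1 had a Nqo1 signal of 3953 at 5w and 4553 at 10w, against 6535 to 7253 and 7976 to 12780.1 in the other APAP/PB livers. MP/PB replicate 4 had 3573 and 4706, against 5573 to 6136 and 8506 to 9677. Both animals were thus low before and after regrowth. Within set 1 and set 2, r was 0.893 and 0.730.

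Gsr followed, at r = 0.704 and rho = 0.641 (permutation adjusted p = 0.00126 and 0.00238; 0.558 without the 2 farthest animals; 0.587 and 0.841 in the sets). Akr7a3 gave r = 0.550 and rho = 0.578 (permutation adjusted p = 0.0162 and 0.0078; 0.629 without the 2 farthest). Gclm gave r = 0.492 and rho = 0.527 (permutation adjusted p = 0.0298 and 0.0214; 0.401 without the 2 farthest), and Srxn1 r = 0.476 and rho = 0.440 (0.0298 and 0.0423; 0.523). Me1 passed by r, at 0.444, and not by rho, at 0.407 (permutation adjusted p = 0.0363 and 0.0619; 0.427 without the 2 farthest). Srxn1 and Me1 were uneven between the sets, at 0.695 and 0.282 for Srxn1 and 0.767 and 0.229 for Me1. Txnrd1, Hmox1 and Gclc gave r = 0.165, 0.127 and 0.111 and rho = 0.173, 0.153 and 0.0694 and did not pass (permutation adjusted p of r from 0.496 to 0.617), and r without the 2 farthest was 0.216, 0.103 and 0.131. Their set values were 0.717 and 0.107 for Gclc, -0.559 and 0.264 for Txnrd1 and -0.222 and 0.0239 for Hmox1. Over all 10910 genes the median r was 0.313, with quartiles of 0.111 and 0.521. An r as high as that of Nqo1 was reached by 3.01% of genes and one as high as that of Gsr by 9.45%. For Akr7a3, Gclm, Srxn1 and Me1 the share was 22.1%, 28.1%, 29.8% and 33.6%. The r of Gclm, Srxn1 and Me1 thus lay between the median and the upper quartile of all genes. The permutations test against no relation, and not against this background. These values and the permutations do not take the array set into account, and both samples of an animal lay in the same set. Within set 1 and set 2 the median r over all genes was 0.286 and 0.251, and the r of Nqo1 was reached by 1.34% and 8.23% of genes. That of Gsr was reached by 21.3% and 2.87%.

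**Figure D4:**
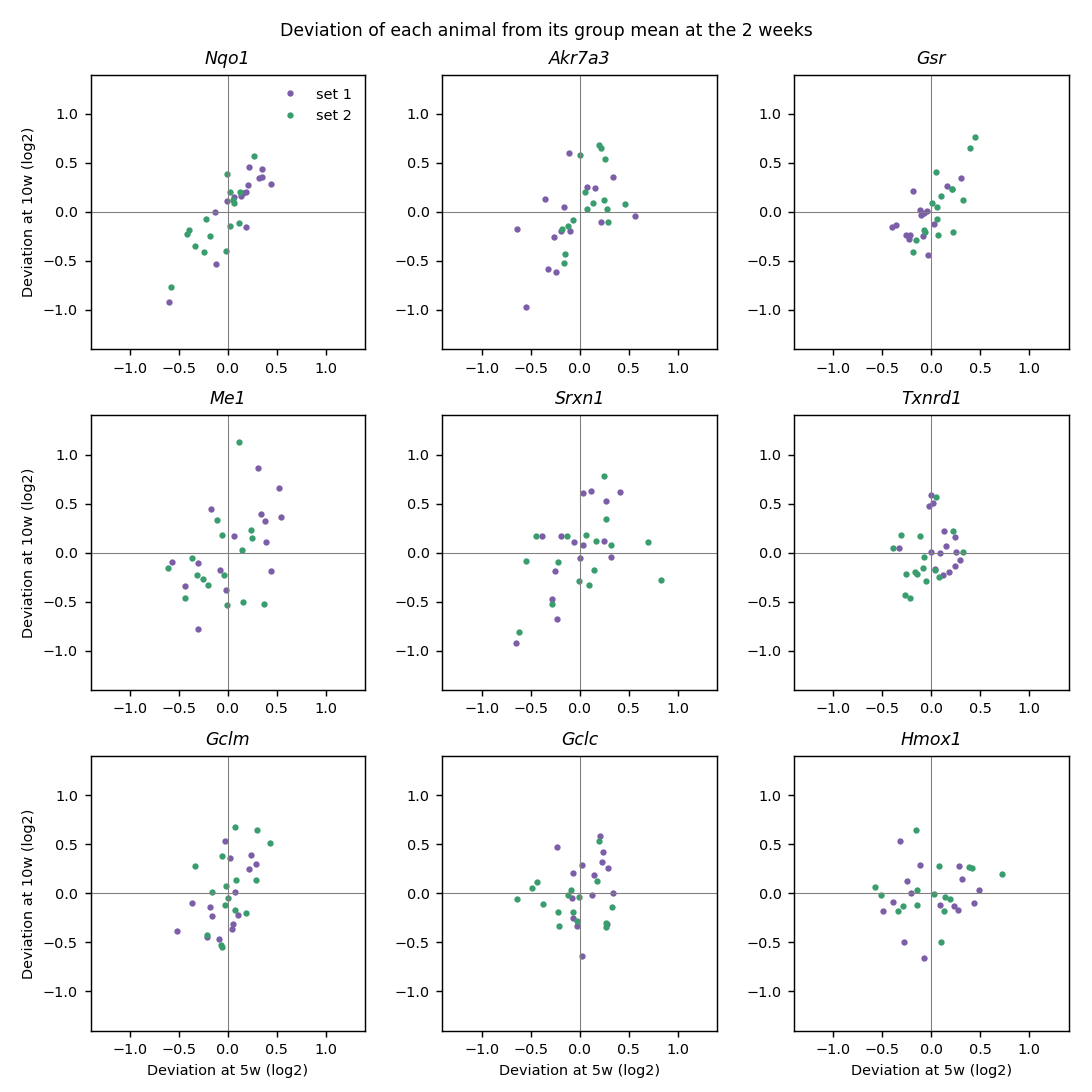
Deviation of each animal from its group mean (log2 scale) at 5w and 10w, for the 9 genes, coloured by array set. The 31 Nqo1 points follow a rising line (r = 0.834), with 2 animals low at both weeks, while Txnrd1, Gclc and Hmox1 show r between 0.111 and 0.165.

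Among arrays of the same group, the members varied together to unequal degrees (62 arrays, which share animals and sets, so the correlations are a description). Akr7a3 and Gclm were the closest pair, at r = 0.717 (0.790 and 0.643 in the sets). Akr7a3 with Srxn1 stood at 0.593 (0.813 and 0.404), Akr7a3 with Gsr at 0.592 (0.357 and 0.749) and Txnrd1 with Srxn1 at 0.575 (0.606 and 0.628). Gclc and Gclm, the subunits of the same ligase, stood at 0.371 and were uneven between the sets (0.646 and 0.256). Hmox1 lay between -0.252 and 0.244 with every other member, and Me1 between -0.252 and 0.358. Nqo1 and Gsr, which moved alike across the group means (r = 0.961 over 14 groups), had 0.112 within groups. Within the sets they stood at 0.146 and 0.344, and from set 1 to set 2 Nqo1 shifted by -0.20 and Gsr by 0.18.

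Of the 5 probe sets not used for a gene, 4 reached 100 on all arrays. The other Me1 probe set gave 0.35 at 5w and 1.68 at 10w when each probe set was tested on its own (limma adjusted p = 0.783 and 0.00639), the other Gclc probe set -0.18 and 0.77, the other Txnrd1 probe set 0.24 and 0.71, and a further Srxn1 probe set 0.51 and 0.98. These had the direction of the probe set used at both weeks. A last Srxn1 probe set, with signals from 1.65 to 85.5, never reached 100 and was not tested.

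Among 39 other genes of the pathway, listed with earlier results of these data in view, 34 had a probe set with a single symbol. At 5w 3 of the 29 tested rose in MC/PB and 0 fell, and at 10w 5 of 30 rose and 0 fell (medians 0.13 and 0.35, against -0.0031 and -0.0094 over all genes, of which 0.839% and 1.59% were higher). Mgst2, a microsomal glutathione transferase, rose by 0.62 ± 0.12 and 1.06 ± 0.12, and Ephx1, the microsomal epoxide hydrolase, by 0.72 ± 0.10 and 0.90 ± 0.11. Abcc3, an exporter of conjugates, went from 21.8 to 58.8 in MC/water to 519 to 1420.0 in MC/PB at 5w and from 7.19 to 75.3 to 1620.0 to 2657 at 10w. With signals under 100 set to 100, these are rises of at least 9.72-fold and 22.5-fold. Abcc3 is among the genes counted as risen at both weeks. None of its MC/water livers reached 100, so it entered the tests only through livers given phenobarbital. Its place in the counts is therefore no support for a rise of the list. Abcc2, an exporter of the bile canaliculus, and Ugdh, which makes the substrate of glucuronidation, rose at 10w by 0.98 ± 0.19 and 0.95 ± 0.22 and stood at 0.44 ± 0.18 and 0.33 ± 0.13 at 5w. Transcripts of the regulators did not pass: Nfe2l2 was at -0.02 ± 0.14 and 0.17 ± 0.17, and Keap1 at 0.29 ± 0.12 and 0.12 ± 0.10 (limma adjusted p from 0.342 to 0.983). The activity of NRF2 is set largely at the protein level, which these arrays do not measure. Against MC/PB, 0 of the list passed for any initiator.

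Across the 14 group means, the genes most like Nqo1 among 10901 were Gsta3 (r = 0.984), Gstm3 (0.984), Slc3a2 (0.980), Manba (0.967) and Pir (0.963). Those most like the mean of the 9 members were Ugdh (0.979), Ddit4l (0.979), Abcc4 (0.972), Entpd5 (0.967) and Htatip2 (0.963). The 14 means come from a single treatment plan and from the same animals at both weeks, so these values describe likeness only.

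The labelled tissue was borne out by hepatocyte transcripts: all 6 markers listed (Alb, Apoa1, Ttr, Serpina1, Cps1 and Tat) reached 100 on all 62 arrays, with median signals from 6529.7 for Tat to 54963 for Serpina1. None of the 6 passed between MC/PB and MC/water, although Tat and Apoa1 did in the 6-group comparison, and their summed signal was 210430 to 247617 in MC/water and 189041 to 236573 in MC/PB at 5w, and 191742 to 230895 and 174645 to 237601 at 10w. Of 2 biliary markers tested, Epcam was higher in MC/PB at both weeks, while the other, Krt19, did not pass at either week. Krt7 stayed under 100 on all arrays and was not tested. The part of the cell makeup in the members' values was not tested.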

How the data were processed

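Liver RNA of 62 samples was measured on Affymetrix arrays, whose model and scaling target were not given in the sources used here. Signal intensities on a linear scale were what the authors deposited; per the submitters' processing notes the software was MAS5 5.0, and its scaling was kept. Groups, doses and weeks came from the labels. An offset of 25 was added before log2. Probe sets had to reach 100 on at least 4 arrays of a fit, and the probe set with the highest mean stood for a gene. The two-sided test was limma 3.58.1 under R 4.3.3, with a trended prior variance, at an adjusted p (Benjamini-Hochberg) of 0.05, on the 31 arrays of a week or all 62. The steps were tested on simulated data. The number of arrays limits the precision.

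Per the labels, the same animals were sampled at 5w and 10w. Residuals of the same animal, paired by treatment and replicate number, correlated between 0.210 and 0.392, above 0.1 in 31 of 31. The animal was therefore a random block in an alternative (consensus correlation 0.316). Both samples of an animal lay in the same array set, which these correlations do not take into account. Livers of equal number in different groups of a week correlated up to 0.241. Within a week, equal numbers name different animals. Up to replicate 4 the number also fixes the array set. The members, gene lists and tests were chosen with earlier results of these data known. The rule for names took the 9 members always, Nfe2l2 and Keap1, up to 4 other pathway genes with the smallest p that passed in each phenobarbital comparison, and the 5 genes most like Nqo1 or the members' mean. Ugdh at 5w and 10w and Abcc2 at 5w fall outside it and were named after their values were seen. Results were recomputed with quantile normalization, without the offset, without the filter, with other probe set rules, with blocks, in single sets, with only the compared groups and without each replicate. The sign of the residuals' first principal component gave the array sets.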

Additional observations from a re-analysis of the deposited data

Results flagged for a closer look

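Of 126 groups of 4 or 5 livers examined for a sample far from the rest, 8 held one by Dixon's test, and chance gives about 1 in 20. Nqo1 was low in MP/PB replicate 4 at both weeks, at 3573 at 5w (others 5573 to 6136) and 4706 at 10w (others 8506 to 9677), in the same animal. Gsr was high in MP/PB replicate 2 at 10w, at 3069.7 against 1529.6 to 1639. Txnrd1 was high in APAP/PB replicate 3 at 10w, at 4806 against 2979 to 3013, and low in MC/water replicate 4 at 5w, at 1744 against 2297 to 2423. Gclc was low in DEN30/PB replicate 2 at 5w, at 2782 against 4763 to 5236. Srxn1 was low in APAP/PB replicate 1 at 5w, at 718 against 918 to 952. Hmox1 was low in MC/water replicate 3 at 10w, at 615 against 693 to 708, a narrow spread.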

How the results depend on the processing

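Single array sets gave the fewest calls among the 9 genes: 0 and 1 in sets 1 and 2 for the phenobarbital response at 5w (3 with both), 2 and 2 at 10w (4), 3 and 3 for all phenobarbital groups over water at 5w (5), 3 and 4 at 10w (7), and 4 in set 2 for time under phenobarbital (7). These fits hold fewer arrays. Nqo1 lost its call in set 1 alone at both weeks (limma adjusted p = 0.0950 and 0.169) and in no other alternative of the MC/PB comparison. Leaving out 1 replicate gave 1 to 3 members at 5w, 3 to 4 at 10w, 3 to 5 and 5 to 7 over water, 7 to 8 for time under phenobarbital, and 0 for the remaining comparisons. The animal as a block gave 1 member for the growth of the response (0 without it). Within a week the replicate number is shared but names different animals, and up to replicate 4 it also fixes the array set. Fitted as a replicate block, it brought Srxn1 at 10w past the threshold (limma adjusted p = 0.0339). It changed no other call of the MC/PB comparison. The count over all genes at 10w was then 389 against 238, and 370 with the set as a block.

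Counts over all genes that moved by over 1.5 times were 78 at 5w with only the compared groups (132), 370 at 10w with the set as a block, and 18 and 20 at 5w and 51 and 36 at 10w in single sets. Over water they were 139 and 130 (444) and 145 and 277 (894) in single sets, and under phenobarbital over time 1043 and 1661 (2682). Initiator counts lay between 0 and 15 (0 to 12), the growth of the response between 0 and 28 (0) and time in MC/water between 0 and 155 (5). Of 3708 values for single members under the alternatives, 26 lost and 6 gained a call, as did 21 and 7 when 1 replicate was left out, and none that passed turned sign. A further 192 changed sign while passing in neither setting. The 3708 values include members without a call in the main fit, which had none to lose, so the losses are no share of 3708. The main fits called 3 and 4 members for MC/PB at 5w and 10w, 5 and 7 over water and 7 for time under phenobarbital. With the probe set used, signals of all 9 genes were over the minimum, which is a filter and no measure of background. The lowest were 371 for Hmox1 and 467 for Srxn1. The part of background in the values was not tested.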
